A study of Mus musculus with 6 samples.

Results

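The class I molecules of the major histocompatibility complex were described in a mouse melanoma line in which Ndufs4 had been targeted. The set comprised 10 genes of the 22535 rows in the table, chosen by name: the classical heavy chains H2-K1 and H2-D1, the non-classical heavy chains H2-T22, H2-T23, H2-T24, H2-Q4, H2-Q6, H2-Q7 and H2-M3, and the light chain B2m. Polyadenylated RNA was sequenced from B16-BL6 cells, a line of mouse melanoma derived from B16 and selected for invasiveness, in 3 libraries from cells with a control guide RNA (sgControl) and 3 from cells with a guide against Ndufs4 (sgNDUFS4). Both groups were the same cell line in the same medium with serum and pyruvate, and no other treatment is labelled. The stated purpose was to look for expression changes behind the immunogenicity of the Ndufs4-targeted cells. The sources used here do not say whether either line is a clone or a pool, or whether the replicates are separate cultures. Each p-value is thus relative to the variation among libraries, part or all of which may be technical, and effects of the guide cannot be told apart from other differences between the cell lines.

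A class I molecule is a membrane-bound heavy chain paired with beta-2-microglobulin, the product of B2m, and a short peptide. The classical heavy chains H2-K and H2-D show peptides of the cell's own proteins to CD8 T cells, while the non-classical chains have narrower roles. H2-M3 is known for presenting peptides that start with N-formylmethionine, which come from bacteria and from proteins encoded in mitochondrial DNA. H2-T23 encodes Qa-1, a ligand of natural killer cell receptors, H2-Q6 and H2-Q7 encode Qa-2 molecules, and H2-T22 is recognised by some gamma-delta T cells. B16 melanoma cells are known for low class I display that interferon can raise. Class I promoters carry an NF-kB site, an interferon-response element and an X-Y module at which the transactivator Nlrc5 acts with RFX, CREB-type and NF-Y factors.

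Levels are given in CPM, the reads of a gene scaled to a common library total. From 20090607 to 25947374 reads were counted per library, so that a floor of 3 reads corresponded to between 0.116 and 0.149 CPM. Ndufs4 was at 54.3, 55.0 and 52.4 CPM in sgControl and at 14.99, 15.98 and 16.84 CPM in sgNDUFS4, so the targeted RNA was lower in every sgNDUFS4 library but not absent. In these bulk libraries, fewer cells with an RNA and less of it per cell cannot be told apart. The melanocyte genes Tyrp1, Pmel and Dct were at 5408, 4358 and 4130 CPM on average in sgControl and at 4869, 5507 and 3331 CPM in sgNDUFS4. Of 7 melanocyte markers, all tested, 2 rose, among them Pmel, and 5 fell, among them Tyrp1 and Dct, with 1 higher and 5 lower under TMM scaling. The part of these changes in the class I values was not tested. Of 11063 genes tested, 52.0% passed in either direction, 31.8% as higher and 20.3% as lower in sgNDUFS4. Of these calls 61.1% were higher as deposited, and 48.9% were higher under TMM scaling, which moved the median gene from 0.06 to 0.00 on the log2 scale.

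Of the 10 class I genes, 6 had the mean of at least 1 CPM needed for the test. H2-K1, H2-D1, H2-M3 and B2m rose in sgNDUFS4, 0 fell, and H2-T22 and H2-Q4 did not pass (limma, adjusted p threshold 0.05). At an unadjusted p under 0.05 there was 1 gene lower, H2-Q4, and edgeR and DESeq2 each also called 1 lower and 4 higher. For 4 of the 6 genes the libraries of one group lay apart from those of the other, all higher in sgNDUFS4, against 35.0% of all genes tested. The median log2 fold change of the 6 genes was 0.44 and that of all genes tested was 0.06. The other 4 heavy chains, H2-T23, H2-T24, H2-Q6 and H2-Q7, lay below the filter and were not tested.

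The promoters of the 6 tested genes are shown first, because the genes that rose and those that did not pass differ in a short stretch of them. Each sequence is the 220 bases before the first RefSeq transcription start listed, on the gene's strand from 5′ to 3′, in the build GRCm38.p6. Capitals mark matches, on either strand, to an NF-kB-type site (GGG, any 2 bases, TT, any base, CC), a short interferon-response type (TTTCNNTTC), a longer one (TTTC, any 2 bases, TTTC), TGACG (the core of the X2 box) and ATTGG (the Y box, an inverted CCAAT). Where matches touch or overlap, 1 run of capitals covers both.
H2-K1: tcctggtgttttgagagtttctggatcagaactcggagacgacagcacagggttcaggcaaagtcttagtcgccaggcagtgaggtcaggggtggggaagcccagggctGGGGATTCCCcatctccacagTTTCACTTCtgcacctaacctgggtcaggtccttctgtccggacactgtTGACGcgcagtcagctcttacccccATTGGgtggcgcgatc
H2-D1: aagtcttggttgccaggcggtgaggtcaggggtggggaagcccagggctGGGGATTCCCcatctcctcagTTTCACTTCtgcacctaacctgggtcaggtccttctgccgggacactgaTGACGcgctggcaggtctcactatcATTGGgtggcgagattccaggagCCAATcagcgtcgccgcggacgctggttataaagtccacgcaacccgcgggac
B2m: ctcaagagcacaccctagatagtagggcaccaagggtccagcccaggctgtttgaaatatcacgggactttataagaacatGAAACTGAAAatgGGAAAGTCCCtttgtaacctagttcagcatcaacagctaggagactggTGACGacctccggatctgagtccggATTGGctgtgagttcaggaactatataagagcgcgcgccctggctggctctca
H2-M3: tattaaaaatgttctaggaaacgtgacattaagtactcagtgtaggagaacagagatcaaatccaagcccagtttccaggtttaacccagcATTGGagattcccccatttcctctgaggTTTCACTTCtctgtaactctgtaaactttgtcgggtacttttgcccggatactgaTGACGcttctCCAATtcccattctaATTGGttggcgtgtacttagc
H2-T22: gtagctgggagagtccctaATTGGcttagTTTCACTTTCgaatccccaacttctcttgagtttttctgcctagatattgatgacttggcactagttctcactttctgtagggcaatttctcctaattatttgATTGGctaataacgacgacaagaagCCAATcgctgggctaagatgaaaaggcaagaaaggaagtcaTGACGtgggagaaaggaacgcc
H2-Q4: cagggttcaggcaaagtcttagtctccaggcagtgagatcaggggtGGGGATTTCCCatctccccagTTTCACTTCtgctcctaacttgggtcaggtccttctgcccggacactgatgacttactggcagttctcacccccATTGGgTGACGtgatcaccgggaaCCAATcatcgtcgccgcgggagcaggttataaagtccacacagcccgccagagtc

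The window of H2-K1 is chr17:34000348-34000567 (minus strand), that of H2-D1 chr17:35262874-35263093 (plus strand) and that of B2m chr2:122147467-122147686 (plus strand). The H2-M3 window is chr17:37270014-37270233 (plus strand), that of H2-T22 chr17:36042743-36042962 (minus strand) and that of H2-Q4 chr17:35379397-35379616 (plus strand). H2-K1 has 2 starts in RefSeq, and the other genes have 1. The GENCODE gene model of H2-D1, used for its position below, starts at 35262730, before the whole window. Positions counted from the start of H2-D1 therefore depend on the annotation. In H2-K1, H2-D1, B2m and H2-M3 a TGACG was followed, after exactly 20 bases, by an ATTGG on the same strand. This spaced pair lay from -41 to -12 in H2-K1, from -101 to -72 in H2-D1, from -78 to -49 in B2m and from -46 to -17 in H2-M3, counted from the start. At the corresponding place, H2-Q4 reads tgacttactggcagttctcacccccATTGG, with an intact Y box but no TGACG, and its TGACG lies 3′ of that Y box, from -73 to -69. H2-T22 has a TGACG from -22 to -18 and no ATTGG after it within the window. The window ends too soon after this TGACG to hold an ATTGG 20 bases on, so a pair there could not have been seen.

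**Figure D1:**
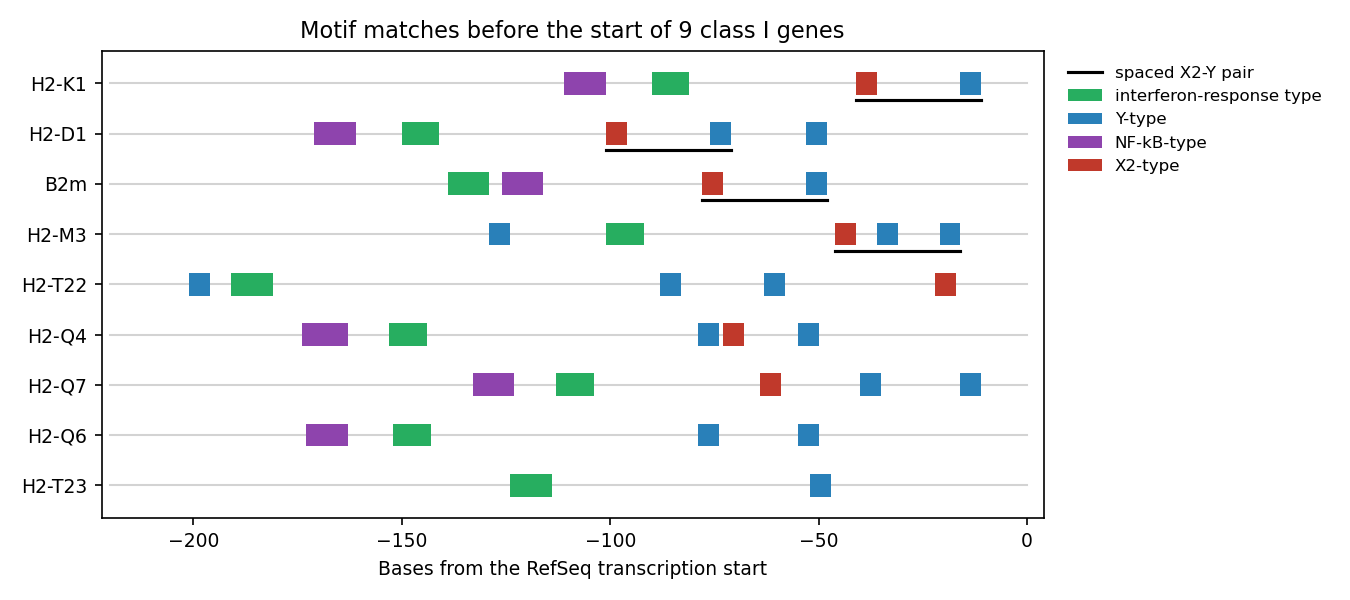
Matches to each motif in the 220 bases before the RefSeq start of 9 class I genes (x axis, bases from the start), with the spaced X2-Y pair underlined in black. The pair is present in H2-K1, H2-D1, B2m and H2-M3 and in none of the other 5 windows.

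RefSeq windows were found for 9 of the 10 genes, and H2-T24 was not matched. All 4 windows with the spaced pair belonged to the genes that rose. Of the 5 windows without it, 2 belonged to tested genes, H2-T22 and H2-Q4, and 3 to the untested H2-Q6, H2-Q7 and H2-T23. H2-Q7 has TGACG from -64 to -60 and ATTGG from -40 to -36, which is 1 base closer than in the pair. The pair occurred in 27 of 32851 promoter windows of all genes (0.0822%), where TGACG alone occurred in 16.6% and ATTGG alone in 31.1%. The spacing was chosen after these sequences and the fold changes had been seen, so the match between pair and change is a description, and a match is not evidence of binding. The NF-kB-type motif was in 3.71% of all windows and was found in H2-K1, H2-D1, B2m, H2-Q4, H2-Q6 and H2-Q7. The short interferon-response type was in 5.51% of all windows and was found in H2-K1, H2-D1, H2-Q4, H2-Q6, H2-Q7 and H2-M3. The longer interferon-response type was in 2.55% of windows and was found in B2m, H2-T22 and H2-T23. Each of these motifs, and also TGACG and ATTGG taken alone, occurred in H2-Q4 or H2-T22, which did not pass. The part of any motif in the changes was not tested.

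Outside the class I set, 20 other genes carried the spaced pair, and 11 of them were tested. Of these, 6 rose and 1 fell, and their median log2 fold change was 0.16, against 31.8% higher among all genes tested. Ghitm rose by 0.32, Trim26 by 0.28 and Nfe2l1 by 0.23 on the log2 scale, and Nasp fell by 0.13 (named after their values were seen). None of the 11 reached the change of B2m, the smallest among the class I genes that rose.

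H2-K1 (ENSMUSG00000061232.16, chromosome 17, 33996017 to 34000347, minus strand, positions in GRCm38) stood at 18.3, 19.1 and 22.1 CPM with the control guide and reached 33.3, 38.3 and 41.8 CPM with the guide against Ndufs4. Every sgNDUFS4 library lay above every sgControl library. The values rest on 367 to 492 reads per library in sgControl and 861 to 1084 in sgNDUFS4. Its mean rose from 19.8 ± 2.01 to 37.8 ± 4.24 CPM (SD, n = 3 each), a log2 fold change of 0.91 (95% confidence interval 0.73 to 1.10, limma adjusted p = 4.8e-09).

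H2-D1 (ENSMUSG00000073411.11, chromosome 17, 35262730 to 35267499, plus strand) was the most abundant heavy chain, at 99.8, 96.1 and 107.5 CPM with the control guide against 139.1, 139.1 and 150.4 CPM with the Ndufs4 guide. Again all sgNDUFS4 libraries were above all sgControl libraries. The mean rose from 101.2 ± 5.82 to 142.9 ± 6.55 CPM (SD, n = 3 each), a log2 fold change of 0.50 (95% confidence interval 0.40 to 0.60, limma adjusted p = 3.1e-09). The rise of H2-K1 was larger than that of H2-D1 in these libraries. The ratio of H2-K1 to H2-D1 CPM was 0.183, 0.199 and 0.205 in sgControl and 0.240, 0.275 and 0.278 in sgNDUFS4. This is a 1.35-fold higher ratio, without overlap, at the smallest p that 3 against 3 libraries allow (exact permutation test, two-sided, p = 0.1).

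B2m (ENSMUSG00000060802.8, chromosome 2, 122147686 to 122153083, plus strand) lies outside the H2 complex. It was at 249.7, 246.1 and 263.5 CPM in sgControl and at 328.5, 320.7 and 336.0 CPM in sgNDUFS4, again without overlap. Its mean rose from 253.1 ± 9.14 to 328.4 ± 7.67 CPM (SD, n = 3 each), a log2 fold change of 0.38 (95% confidence interval 0.30 to 0.45, limma adjusted p = 1.9e-09). The whole gene model overlaps Patl2 on the other strand, and the libraries did not keep the strand, but Patl2 is listed at 0 CPM in every library.

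**Figure D2:**
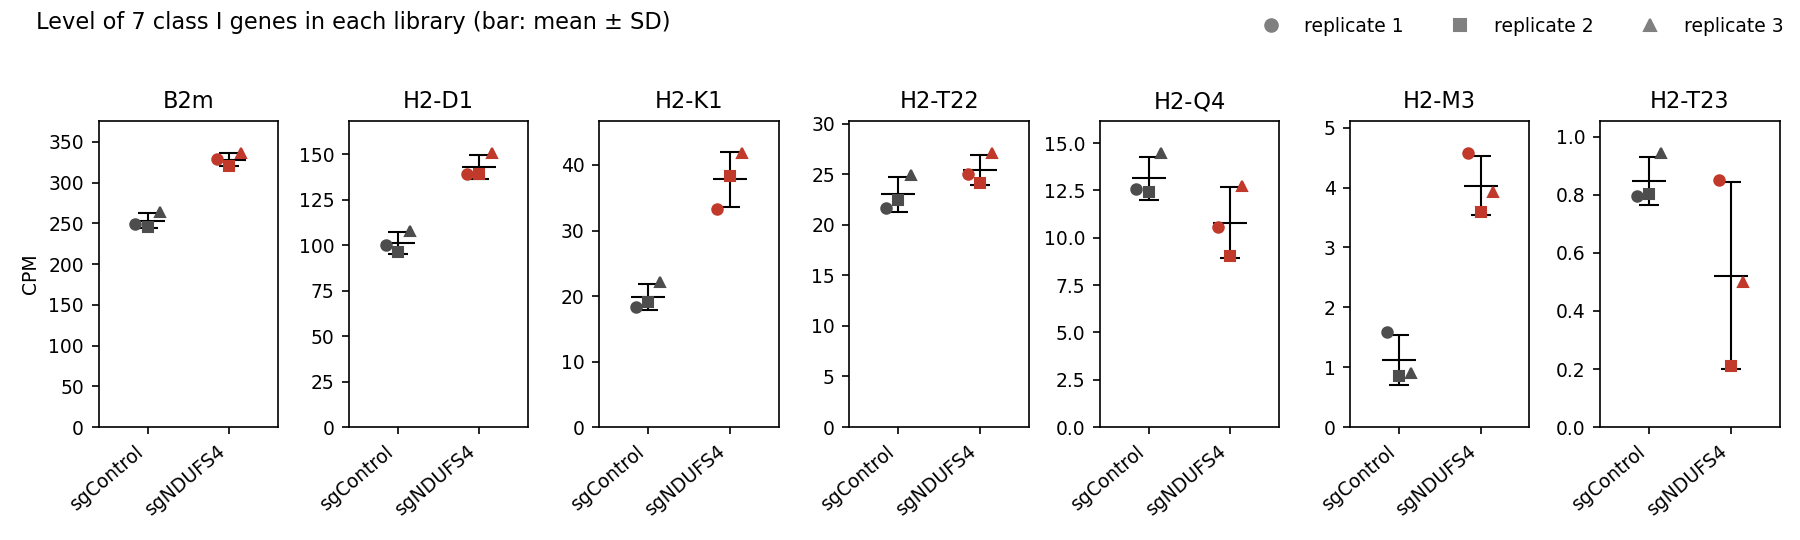
CPM of the 6 tested class I genes and H2-T23 in each library, with each gene on its own axis from 0 (symbols, replicates; bars, mean ± SD, n = 3). B2m, H2-D1, H2-K1 and H2-M3 do not overlap between the groups, while H2-T22, H2-Q4 and H2-T23 do.

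H2-M3 (ENSMUSG00000016206.6, chromosome 17, 37270220 to 37274484, plus strand), the presenter of N-formylated peptides, had the largest fold change of the class I genes tested, from a low level. It was at 1.59, 0.846 and 0.898 CPM in sgControl, which are 32, 20 and 20 reads, and at 4.57, 3.597 and 3.93 CPM in sgNDUFS4, which are 118, 86 and 102 reads. The lowest sgNDUFS4 library was above the highest sgControl library. Its mean rose from 1.11 ± 0.417 to 4.03 ± 0.495 CPM (SD, n = 3 each), 3.63-fold as a ratio of means. The limma estimate, on log2(CPM + 0.5) and so smaller than the log2 ratio of means for low genes, was 1.52 (95% confidence interval 1.03 to 2.003, limma adjusted p = 6.9e-06).

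H2-T22 (ENSMUSG00000056116.18, chromosome 17, 36037128 to 36042747, minus strand) was at 21.7, 22.4 and 24.96 CPM in sgControl and at 25.1, 24.2 and 27.1 CPM in sgNDUFS4. The highest sgControl library lay above the lowest sgNDUFS4 library. The log2 difference was 0.14 (95% confidence interval -0.03 to 0.32, limma adjusted p = 0.17), so a rise as large as that of H2-D1 lay outside the interval. H2-T22 had nearly the CPM of H2-K1 in sgControl, at 23.01 ± 1.73 CPM (SD, n = 3), and was the lower of the pair in sgNDUFS4, at 25.4 ± 1.48 CPM (SD, n = 3).

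H2-Q4 (ENSMUSG00000035929.11, chromosome 17, 35379617 to 35385290, plus strand) was the tested heavy chain with a lower mean in sgNDUFS4. It was at 12.6, 12.4 and 14.5 CPM in sgControl and at 10.57, 9.03 and 12.8 CPM in sgNDUFS4. The third sgNDUFS4 library lay above 2 of the 3 sgControl libraries, so the groups overlapped. The log2 difference was -0.28 (95% confidence interval -0.54 to -0.02, limma adjusted p = 0.064). H2-Q4 passed as lower under TMM scaling (-0.34, adjusted p = 0.026), with edgeR (-0.34, adjusted p = 0.028) and without the third sgNDUFS4 library (-0.41, adjusted p = 0.016). Over the 17 alternatives its adjusted p ranged from 0.016 to 0.32.

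The remaining heavy chains were at or near the floor. H2-T23 (Qa-1) had 16, 19 and 21 reads in sgControl and 22, 5 and 13 reads in sgNDUFS4, or 0.847 ± 0.0826 and 0.521 ± 0.322 CPM (SD, n = 3 each). Fitted without a filter on low values, its log2 difference was -0.45 (limma adjusted p = 0.13). H2-T24 had 1, 1 and 0 reads in sgControl and 0 in each sgNDUFS4 library. H2-Q7 had 1 read in the third sgControl library and 1 in the second sgNDUFS4 library. H2-Q6 had 0 reads in all 6 libraries, which allows up to 0.116 to 0.149 CPM, depending on the library. Qa-2 transcripts were thus hardly detected at this depth, and no difference between the groups could be seen for them.

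**Figure D3:**
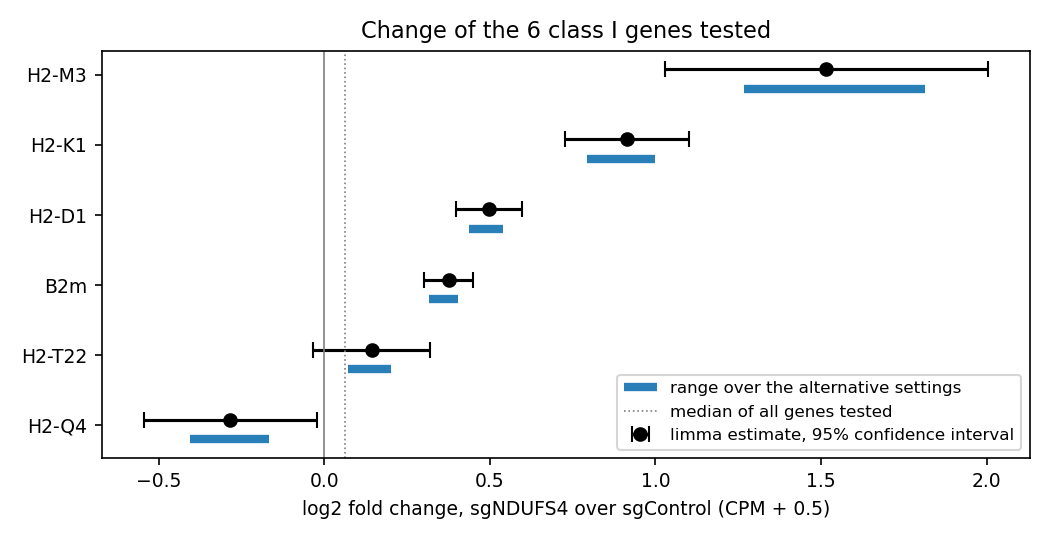
Log2 fold change of the 6 class I genes tested (points, limma estimate; bars, 95% confidence interval; blue lines, lowest to highest value over the alternative settings; dotted line, median of all genes tested). The intervals of H2-M3, H2-K1, H2-D1 and B2m lie above 0, that of H2-T22 includes 0, and that of H2-Q4 ends at -0.02 before adjustment.

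Levels of different genes were compared per kilobase of exon. In sgControl the order was B2m (294.3 ± 10.63 CPM per kb, SD, n = 3), H2-D1 (39.2 ± 2.26), H2-K1 (6.75 ± 0.683), H2-T22 (6.74 ± 0.508), H2-Q4 (5.06 ± 0.439), H2-M3 (0.773 ± 0.290) and H2-T23 (0.293 ± 0.0286). H2-K1 and H2-T22 did not differ beyond their spread in that order. In sgNDUFS4 the same genes were at 381.9 ± 8.92, 55.4 ± 2.54, 12.9 ± 1.44, 7.45 ± 0.432, 4.16 ± 0.721, 2.80 ± 0.344 and 0.180 ± 0.111 CPM per kb of exon (SD, n = 3 each). H2-K1 then stood above H2-T22 by more than the spread, and H2-M3 stood above H2-T23 in both groups. With the length of the longest coding transcript instead, H2-T22 was at 13.1 ± 0.984 and H2-K1 at 12.2 ± 1.24 CPM per kb in sgControl (SD, n = 3 each), so the order of these neighbours depends on the gene model.

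The heavy chains together differed by about the same extent as H2-D1. Their summed level was 154.8, 151.7 and 170.9 CPM in sgControl, against 213.5, 214.5 and 236.4 CPM in sgNDUFS4, a 1.39-fold difference without overlap, given as a description. Reads shared with paralogs outside the 9 chains could change this sum. Without H2-K1 and H2-D1, the other heavy chains summed to 36.7, 36.5 and 41.3 CPM in sgControl and to 41.1, 37.1 and 44.2 CPM in sgNDUFS4, and the groups overlapped. The difference in the sum lay mostly in the classical chains.

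The make-up of the heavy chain RNA shifted towards H2-K1. Its share of the summed heavy chain CPM was 11.8%, 12.6% and 12.9% in sgControl and 15.6%, 17.9% and 17.7% in sgNDUFS4. H2-Q4 went the other way, from 8.14%, 8.17% and 8.46% to 4.95%, 4.21% and 5.40%, and H2-T22 from 14.5% ± 0.413 to 11.5% ± 0.237 (SD, n = 3 each). H2-M3 made up 0.704% ± 0.282 and 1.83% ± 0.272 (SD, n = 3 each). The groups did not overlap in any of these 4 shares (exact permutation tests, two-sided, p = 0.1 each, the smallest possible). H2-D1 held 63.6% ± 0.822 and 64.5% ± 0.811 (SD, n = 3 each), and its groups overlapped (exact permutation test, p = 0.2). Shares add to 100%, so a higher share of 1 chain lowers the others.

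**Figure D4:**
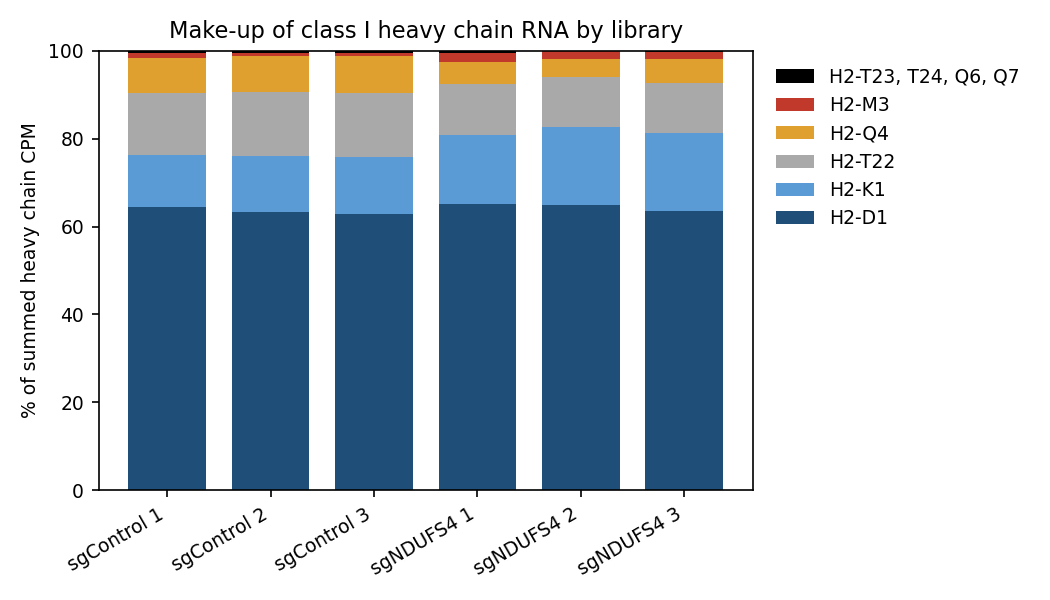
Share of each heavy chain in the summed heavy chain CPM of each library (stacked bars to 100%). The H2-K1 band is 11.8% to 12.9% in sgControl and 15.6% to 17.9% in sgNDUFS4, and the H2-Q4 band 8.14% to 8.46% and 4.21% to 5.40%.

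The log2 fold change of B2m was slightly smaller than that of the summed heavy chains, its partners. The ratio of B2m to summed heavy chain CPM was 1.61, 1.62 and 1.54 in sgControl and 1.54, 1.50 and 1.42 in sgNDUFS4, a log2 difference of -0.10. The lowest sgControl ratio, 1.542, and the highest sgNDUFS4 ratio, 1.539, were almost equal. Against H2-D1 alone, the B2m ratio was 2.504 ± 0.0555 and 2.301 ± 0.0646 (SD, n = 3 each).

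The highest value fell in the same library for most class I genes tested, while the order of the other libraries differed between genes. How many of all genes share this was not computed. The third library of each group had the highest value of H2-K1, H2-D1, B2m, H2-T22 and H2-Q4 in both sgControl and sgNDUFS4, and the first library had the highest value of H2-M3 in both. The spread between libraries exceeded counting error: the coefficient of variation of H2-K1 was 10.12% in sgControl and 11.2% in sgNDUFS4, where counting alone gives 4.78% and 3.24%. For H2-D1 it was 5.75% and 4.58%, where counting gives 2.12% and 1.67%.

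Class I heavy chains resemble each other, and the sources used here do not say how the authors treated reads that fit several genes. The share of windows of 100 bases in each longest coding transcript that occur in no other gene's transcript was therefore computed. It was 100% for B2m, H2-K1, H2-M3 and H2-T24, 95.4% for H2-D1, 92.7% for H2-T23, 87.0% for H2-Q6, 86.1% for H2-Q4, 85.8% for H2-T22 and 83.6% for H2-Q7. With windows of 50 bases the lowest were H2-T22 at 55.3% and H2-Q4 at 60.8%, and H2-K1 and H2-D1 were at 91.2% and 85.7%. H2-T22 shares 37.9% of its 50-base windows with H2-T10, which had 12, 11 and 7 reads in sgControl and 14, 22 and 21 reads in sgNDUFS4. H2-Q4 shares 16.1% with Gm11131, an antisense gene that overlaps it and was not used here. The counts of H2-T22, H2-Q4, H2-Q6 and H2-Q7 are therefore less certain than those of H2-K1, H2-M3 and B2m, and H2-T22, H2-T23 and H2-T24 also overlap an antisense RNA, A930015D03Rik, which was not used here.

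Of 27 other class I heavy chain genes listed for the H2 complex, 18 had a row, 12 of them were at 0 in every library, and none reached the filter. H2-Q1 had 0, 0 and 1 reads in sgControl and 9, 11 and 2 reads in sgNDUFS4, and it shares 4.24% of the 100-base windows of H2-D1. These 18 genes summed to between 0.853 and 0.930 CPM in sgControl and between 1.08 and 1.59 CPM in sgNDUFS4. Adding them to the heavy chain sum left its log2 difference at 0.48.

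The nearest tested gene on each side of the classical chains did not pass as higher. Of 74 tested genes between H2-K1 and H2-M3 other than the heavy chains, over 3.28 Mb of chromosome 17, 30 rose and 14 fell. Their median log2 fold change was 0.16. Without the genes of the peptide supply and class II lists, 25 of 68 rose, with a median of 0.11. Over all of chromosome 17, 197 of 544 tested genes outside the class I set rose, with a median of 0.12. Of all genes tested, 31.8% were higher. Next to H2-K1, Vps52 fell by 0.16 on the log2 scale (limma adjusted p = 0.018) and Ring1 was at -0.12 (limma adjusted p = 0.27). A little beyond Ring1, Col11a2, a collagen gene, rose by 1.50 on the log2 scale and Rxrb, a retinoid receptor gene, fell by 0.27 on it (named after their values were seen). On either side of H2-D1, Ddx39b was at -0.01 and Tcf19 at -0.09 (limma adjusted p = 0.79 and 0.27). Their starts lie 21 kb and 250 kb from that of H2-D1, and H2-Q4 lies before Tcf19. B2m stands between Spg11, at 0.04, and Sord, which rose by 0.14 on the log2 scale (limma adjusted p = 0.57 and 0.0087). The genes H2-T24, H2-T23 and H2-T22 stand between Gnl1, which fell by 0.19 on the log2 scale (limma adjusted p = 0.00090), and Rpp21, which rose by 0.47 on it (limma adjusted p = 0.0017). Values near H2-M3 were mostly positive on the H2 side. Beyond it the next tested gene, 9130008F23Rik, starts 3605 kb away and was at -0.07 (limma adjusted p = 0.79). Of 8 tested genes between H2-T24 and H2-M3, 5 rose and 3 did not pass, with a median of 0.39. Among these, Zfp57, which encodes a zinc finger protein of genomic imprinting, rose by 1.83 on the log2 scale (named after its value was seen), and Gabbr1, the nearest on that side, was at 0.32 (limma adjusted p = 0.066). Relative to the median of the 50 nearest tested genes, H2-M3 was at 1.47, H2-K1 at 0.79, H2-D1 at 0.46 and B2m at 0.32, and all 4 passed.

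**Figure D5:**
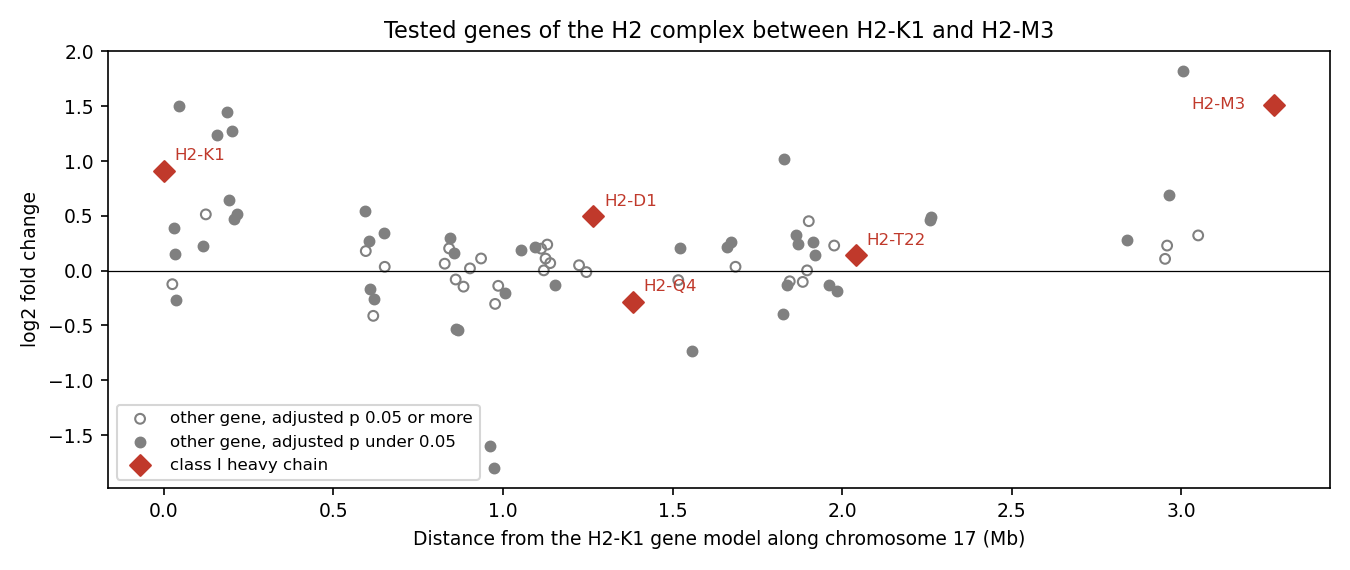
Log2 fold change of the tested genes between H2-K1 and H2-M3 by distance along chromosome 17 (circles, other genes, filled where adjusted p is under 0.05; diamonds, class I heavy chains). H2-D1 lies above the nearest tested gene on either side. H2-K1, the first gene shown, lies above the next one, and some genes near H2-K1 lie above it. The 8 genes before H2-M3 all have positive values.

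Most genes tested that supply class I molecules with peptide were called higher. Of 13 tested genes of peptide supply and loading, 9 rose, 0 fell and 4 did not pass. Of all genes tested 31.8% were higher. The median log2 fold change of the 13 was 0.32, against 0.06 for all genes tested. None was lower at an unadjusted p under 0.05, and edgeR and DESeq2 each called 9 higher and 0 lower. Psmb8 and Psmb9, immunoproteasome subunits encoded between the classical chains, rose by 1.27 and 1.45 on the log2 scale. Psmb9 had 15, 24 and 19 reads in sgControl and 84, 84 and 76 reads in sgNDUFS4. Its mean was 0.871 CPM in sgControl, so it reached the filter only through its sgNDUFS4 libraries. With a filter of at least 5 CPM, 8 of 12 genes of this list rose. The proteasome activator subunit Psme1 rose by 0.68 on the log2 scale. The peptide transporter subunit Tap1 was at 12.3 ± 1.37 CPM in sgControl and 19.4 ± 1.09 CPM in sgNDUFS4 (SD, n = 3 each). The lectin chaperone Canx and the disulfide isomerase Pdia3, which assist heavy chain folding, rose by 0.21 and 0.28 (log2), and the immunoproteasome subunit Psmb10 was at 0.12 (limma adjusted p = 0.14). Relative to the 50 nearest genes, 6 of the 13 were higher and 2 lower, and Canx did not pass (0.07, limma adjusted p = 0.079). Psmb9 and Tap1 overlap, so their reads cannot be told apart where they do.

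Among 17 tested transcription factors of class I genes, 7 rose and 1 fell, and 31.8% of all genes tested were higher. The median was 0.07, close to that of all genes. Under TMM scaling, edgeR and DESeq2, and without the first sgNDUFS4 library, 4 of the 17 rose. Of all genes, 2744 of 11063 rose under TMM scaling. Nlrc5, the class I transactivator, was measured at 17.9, 19.1 and 22.7 CPM in sgControl and at 29.0, 31.9 and 33.8 CPM in sgNDUFS4, without overlap. It rose by 0.66 on the log2 scale (limma adjusted p = 1.4e-06). Rfx5, a subunit of the RFX complex that binds the X box beside X2, rose by 0.69 (limma adjusted p = 0.00012), and Nfkb1, a subunit of NF-kB, by 0.20 on the same scale. Nfyc, a subunit of the Y-box factor NF-Y, fell by 0.31 on the log2 scale (limma adjusted p = 0.0016). The interferon-response factor Irf1 was at 0.17 (limma adjusted p = 0.076), and it passed without the third sgControl library (0.22, limma adjusted p = 0.040).

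Of 7 tested interferon receptor and kinase genes, 3 rose and 0 fell, and 31.8% of all genes tested were higher. The 3 were Jak1, Ifngr2 and Jak2, with log2 fold changes of 0.16, 0.21 and 0.21, and the groups overlapped for Jak2. Ifnar2 was at 0.09 (limma adjusted p = 0.28). None of the 7 was lower at an unadjusted p under 0.05, and only 1 rose under TMM scaling and 0 with edgeR or DESeq2. Without the first sgControl library neither Ifngr2 nor Jak2 passed, and Jak2 did not pass without the second sgControl or the first sgNDUFS4 library. Of 10 tested genes that repress class I transcription or remove class I molecules from the surface, 4 rose and 1 fell, with a median of 0.13, and 31.8% of all genes tested were higher. The Polycomb repressive complex subunits Eed, Ezh2 and Suz12, which are known to silence class I genes in tumours, rose by 0.37, 0.23 and 0.21 (log2). Relative to the 50 nearest genes, Suz12 did not pass (0.09, limma adjusted p = 0.14). The Polycomb partner Mtf2 was at 0.14 (limma adjusted p = 0.26). Wwp2, a ubiquitin ligase, fell by 0.23 on that scale.

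Class I-like molecules encoded elsewhere did not move together. Of 5 tested, 2 rose and 1 fell, where 31.8% of all genes tested were higher and 20.3% lower. Mr1, which presents vitamin B metabolites, rose from 11.1 ± 1.29 to 17.7 ± 0.753 CPM, and Hfe, which regulates iron uptake, from 10.43 ± 1.23 to 13.8 ± 1.42 CPM (SD, n = 3 each). Hfe did not pass without the first sgNDUFS4 library (limma adjusted p = 0.058) or relative to the 50 nearest genes (limma adjusted p = 0.15). Azgp1, a secreted class I-like protein, fell by 1.88 on the log2 scale, being at 3.29 ± 0.652 and 0.531 ± 0.192 CPM (SD, n = 3 each). Azgp1 had 8, 15 and 17 reads in sgNDUFS4, and it reached the filter only through its sgControl libraries. Fcgrt, the neonatal Fc receptor, was at 0.07 on the log2 scale (limma adjusted p = 0.61).

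Class II genes were mostly silent in both groups. Of 10 listed, 7 had no read in any library, among them H2-Aa, H2-Ab1 and H2-Eb1, and 2 were tested, of which 1 rose and 0 fell. H2-DMb1, a subunit of the class II peptide exchange factor, had 64, 74 and 106 reads in sgControl and 228, 236 and 236 reads in sgNDUFS4, and rose by 1.24 on the log2 scale (limma adjusted p = 7.6e-07). H2-DMa, its partner, was at 0.51 (limma adjusted p = 0.11). No class II gene tested was lower at an unadjusted p under 0.05 or with edgeR or DESeq2.

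Leukocytes carry much class I RNA, and their markers were low. The T cell markers Cd3e, Cd3g and Cd8a had no read in any library, and Ptprc, which encodes the pan-leukocyte antigen CD45, had 4, 15 and 1 reads in sgControl and 21, 3 and 0 reads in sgNDUFS4. The 11 leukocyte markers with a row summed to between 9.02 and 16.7 CPM in sgControl and between 6.05 and 15.2 CPM in sgNDUFS4, and of 4 tested only Cd68 passed, which fell by 0.81 on the log2 scale. Its adjusted p was 0.051 to 0.057 without the first or second sgControl library or the second or the third sgNDUFS4 library (limma), and 0.097 without the variance trend. Lyz2 and Adgre1, the other leukocyte markers with the highest means, were at 0.27 and -0.10 on the log2 scale (limma adjusted p = 0.36 and 0.84), and the sign of Adgre1 flipped without the third library of either group. Their part in the class I values was not tested. All 4 endothelial markers, among them Pecam1, Cdh5 and Kdr, had no read. The fibroblast list summed to between 41.8 and 44.1 CPM in sgControl and between 41.5 and 46.1 CPM in sgNDUFS4, led by Col1a2, Col1a1 and Pdgfra, and 0 of 3 tested passed with limma, while 1, Col1a1, was lower at an unadjusted p under 0.05, with edgeR, with DESeq2 and without the third sgControl library. Pdgfra passed as higher without a filter (0.46, limma adjusted p = 0.038) or without the variance trend (limma adjusted p = 0.0034).

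The genes outside the set whose profile over the 6 libraries was most like that of a class I gene were sought among 9332 candidates whose mean reached 5 CPM, by the root-mean-square difference of centred log2 values. Left out of the candidates were symbols of Gm and a digit, symbols ending in Rik or starting with digits and a dash, and repeated symbols. For H2-K1 the nearest genes were Mgst3, Zfp90 and Dbn1, at differences of 0.062, 0.071 and 0.080. For H2-D1 they were Wdr6, Ttc37 and Coq9, at 0.025, 0.028 and 0.031, and for B2m Pbxip1, Gyg and Apc, at 0.0089, 0.017 and 0.018. None of these 9 genes lies on chromosome 17, and none belongs to the antigen presentation lists.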

How the data were processed

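The authors deposited 1 table of CPM values, the reads counted per gene scaled to a common total per library, for 3 sgControl and 3 sgNDUFS4 libraries. Sequencing was paired-end without strand, per the labels' protocols, and the submitters' processing notes name HISAT2 and GRCm38. Which counting tool, annotation and filters were used, and the read length, is not given in the sources used here. Dividing the deposited values by each library's smallest non-zero value gave whole reads (99.98% to 100% of non-zero values within 0.01). The floor of 3 reads allows for counting error alone, because no molecular identifiers were read.

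The main test was limma 3.58.1 (R 4.3.3) with a mean-variance trend on log2(CPM + 0.5), for the 11063 genes whose mean CPM in the 6 libraries reached 1. P-values were two-sided and Benjamini-Hochberg adjusted over all of them, with a threshold of 0.05. Ratios and shares were compared with exact permutation tests of 3 against 3 libraries. edgeR 4.0.16 and DESeq2 1.42.0 on the recovered reads, which called 2723 and 2603 genes higher and 2860 and 2767 lower, were alternatives. Further alternatives changed the pseudocount, the filter, the scaling or the variance model, added a replicate block, dropped each library in turn or centred each gene on the 50 tested genes nearest to it. The limma and edgeR fits were also run on simulated counts with few changed genes and the same variance setting for every gene. That is simpler than these data, so the simulation is not used here as support.

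Gene positions and exon lengths came from GENCODE M21 (GRCm38), matched by symbol, and promoters from RefSeq (GRCm38.p6). The 25 symbols that occur more than once stayed separate rows. The members and gene lists were chosen with earlier results of these data known, so the counts are not independent support. From each list up to 4 called genes with the smallest p and up to 1 that did not pass are named, with Tap1, Psmb8, Psmb9, Nlrc5 and Irf1 always, the 3 highest of each marker list, the tested neighbours and the 3 nearest profiles. Protein sequences were not used here. Some listed genes are counted in their lists but not reported here by name.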

Additional observations from a re-analysis of the deposited data

How the results depend on the processing

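H2-K1, H2-D1 and B2m passed as higher in all 17 alternatives and H2-M3 in all 16 it could be fitted in, with log2 fold changes from 0.79 to 1.00, from 0.44 to 0.54, from 0.32 to 0.40 and from 1.27 to 1.82. H2-M3 was not tested with a filter of at least 5 CPM, which left 3 members higher there by construction. H2-T22 passed in none (0.07 to 0.20). H2-Q4 was the 1 member called lower under TMM scaling, quantile normalization, the replicate block (-0.28, adjusted p = 0.041), edgeR, DESeq2 and without the third sgNDUFS4 library, so that the number lower was 0 to 1 with a library left out. The summed heavy chain difference was 0.43 to 0.53 with a library left out and 0.42 under TMM scaling. The ratio of B2m to heavy chains ranged from -0.13 to -0.07 and that of H2-K1 to H2-D1 from 0.38 to 0.50 (log2 differences) when any 1 library was dropped, and the former was -0.20 against H2-K1 and H2-D1 alone. With the replicate block as an exact sign-flip permutation test over the 3 pairs, the ratio of H2-K1 to H2-D1 gave p = 0.25, the smallest possible.

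Class I transcription factors called higher were 4 under TMM scaling, quantile normalization, edgeR and DESeq2, and 4 to 6 with a library left out (4 without the first sgNDUFS4 library). With regional centring 2 of them were lower, as were 2 genes of peptide supply and loading. Of the class II genes 2 were higher without a filter or without the variance trend. Psmb10 (-0.0060) and Col1a2 (-0.18) changed sign with regional centring. Adgre1 was at 0.0052 with edgeR and 0.0046 with DESeq2, and -0.50 to 0.38 with a library left out, positive without the third sgControl (0.07) or the third sgNDUFS4 (0.38) library. None of these passed. The causes were not tested. Same-numbered libraries share only a number: their deviations from the group means correlated at 0.014, 0.043 and 0.095 over 9655 genes, and not every library correlated best with its own number. The block changed the count of all genes called to 3632 higher and 2309 lower.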
